A study of Rattus norvegicus with 6 samples.

Results

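Serine synthesis and folate one-carbon enzymes were followed in NRK-52E cells, an established epithelial line from normal rat kidney, with and without streptozotocin (STZ), a DNA-alkylating nitrosourea that carries a glucosamine group. The sequenced RNA came from wild-type cells, 3 samples given vehicle (Control) and 3 samples exposed to STZ at 10 mM during 24 h. The set was defined by gene symbol and holds 9 of the 18930 genes in the deposited count table, namely Phgdh, Psat1, Psph, Shmt1, Shmt2, Mthfd1, Mthfd1l, Mthfd2 and Aldh1l2, each on 1 row. The genes were picked with the difference between STZ and Control in these samples already known, so their values are a description and carry no test. It is not stated whether the 3 samples of a group were separate cultures, so the spread given is the spread between these samples, which may be technical. The standard errors, adjusted p-values and calls below rest on that spread, so they may not measure variation between cultures.

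Cells make serine from the glycolytic intermediate 3-phosphoglycerate by the successive action of Phgdh, Psat1 and Psph. Serine hydroxymethyltransferases (Shmt1 mainly in the cytosol, Shmt2 in mitochondria) then move a carbon from serine to tetrahydrofolate, which leaves glycine. In mitochondria Mthfd2, Mthfd1l and Aldh1l2 oxidise the folate-bound carbon or release it as formate or CO2, and in the cytosol the trifunctional Mthfd1 takes up formate and supplies purine, thymidylate and methionine synthesis. The transcription factor ATF4, the effector of the integrated stress response, is known to induce Phgdh, Psat1, Shmt2 and Mthfd2.

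Libraries held between 10430924 and 15191349 counts, and values are given as CPM, the reads of a gene per 1000000 library counts after TMM scaling, whose factors lay between 0.988 and 1.02. Differences are log2 fold changes of STZ against Control from edgeR's quasi-likelihood fit across the 11870 genes that passed the filter on low counts, and a gene was called at a Benjamini-Hochberg adjusted p-value under 0.05. As a check of the label, Krt8 was abundant in every sample, but of 11 kidney epithelial markers 9 were in the table and only Krt8 and Cdh1 passed the filter. Pax8, Krt18, Lrp2 and Cubn had means of at most 0.459 CPM in either group. Of 8 mesenchymal markers 4 passed, among them Vim with a mean of 1999 CPM in Control. Of 6 endothelial and blood cell markers 1 passed, with a summed level of the list between 0.818 and 2.60 CPM over the 6 samples. The summed mesenchymal level, carried by Vim, was 1991 to 2213 CPM in Control and 1916 to 1949 CPM in STZ. All 4 mesenchymal markers that passed were called lower, with log2 fold changes between -0.33 and -0.12. The summed kidney epithelial level, carried by Krt8, was 1105 to 1179 CPM in Control and 1598 to 1615 CPM in STZ. Krt8 was called higher (log2 fold change 0.48), but Cdh1 was called lower (log2 fold change -0.69), with overlapping groups. Cdh1 had means of 2.58 CPM in Control and 1.64 CPM in STZ, so the sum follows Krt8. The part of either list in the values below was not tested. In bulk RNA, fewer cells of a type and less RNA per cell cannot be told apart.

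The promoter windows of the genes with the lowest fold changes, Psat1 and Mthfd1l, and of Shmt1, whose level was close in both groups, are shown to compare their sequences. The sequences are the 250 bases before the gene's start in RefSeq's GRCr8 build, 5′ to 3′ on the gene's strand, with matches to a searched motif in capitals. They lie at chr1:222645409-222645658 (minus strand), chr1:42849174-42849423 (plus strand) and chr10:45990342-45990591 (minus strand).
Psat1: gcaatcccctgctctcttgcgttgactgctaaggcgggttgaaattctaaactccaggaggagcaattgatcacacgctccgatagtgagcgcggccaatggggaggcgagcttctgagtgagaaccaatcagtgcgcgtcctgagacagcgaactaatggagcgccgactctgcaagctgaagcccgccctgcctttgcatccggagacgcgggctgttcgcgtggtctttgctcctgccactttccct
Mthfd1l: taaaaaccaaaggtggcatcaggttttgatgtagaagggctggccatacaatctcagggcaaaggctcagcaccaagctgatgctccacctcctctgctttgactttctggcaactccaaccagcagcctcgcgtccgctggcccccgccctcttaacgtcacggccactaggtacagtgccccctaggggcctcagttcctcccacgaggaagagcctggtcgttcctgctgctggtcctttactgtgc
Shmt1: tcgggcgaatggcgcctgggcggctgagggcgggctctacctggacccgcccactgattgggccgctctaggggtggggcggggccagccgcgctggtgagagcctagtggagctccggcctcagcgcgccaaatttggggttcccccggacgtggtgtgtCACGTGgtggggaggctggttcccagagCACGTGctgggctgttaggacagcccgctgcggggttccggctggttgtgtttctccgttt
The motifs searched on both strands were the ATF4-C/EBP composite element TGATGNAA, the E-box CACGTG and the antioxidant response element TGACNNNGC. Of the 9 genes, 7 had a promoter in the RefSeq table, and Mthfd1 and Aldh1l2 did not. The E-box occurred in the Shmt1 window alone, at 89 to 84 and 61 to 56 bases before the start, against 5.59% of all 33469 windows of the same length. TGATGNAA, found in 3.40% of all windows, and TGACNNNGC, found in 10.1%, had no match in the 7 windows. The number of CpG dinucleotides was 18 for Psat1, 8 for Mthfd1l and 21 for Shmt1, and ranged from 5 (Phgdh) to 21 over the 7 windows, with a median of 5 over all promoters. Matches describe these letters in these windows only.

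The 3 genes of serine synthesis all had lower levels in STZ-treated cells. Their summed level was 369 ± 12.3 CPM in Control and 225 ± 4.37 CPM in STZ (SD, n = 3 each), a ratio of 0.610. Phgdh, the 3-phosphoglycerate dehydrogenase that opens the pathway, had 155, 161 and 171 CPM in Control and 105, 108 and 95.3 CPM in STZ. Every STZ sample lay below every Control sample, and the log2 fold change was -0.66 (standard error 0.05), 0.632 of the Control level. Psat1, the aminotransferase of the next step, had 155, 172 and 155 CPM in Control and 84.2, 79.5 and 86.5 CPM in STZ. The groups were far apart relative to their SDs of 9.48 and 3.57 CPM, with a log2 fold change of -0.94 (standard error 0.05), 0.521 of the Control level. Of all genes tested, 1.40% had a log2 fold change as low or lower, a rank without a test because Psat1 was picked on this contrast. Psph, the phosphatase that releases serine, had 44.6, 45.9 and 47.8 CPM in Control and 37.8, 39.8 and 38.1 CPM in STZ. Its groups did not overlap either, but the difference was the smallest of the 3, a log2 fold change of -0.26 (standard error 0.06). Relative to Phgdh reads, Psph reads were 0.284 ± 0.00381 in Control and 0.375 ± 0.0219 in STZ (SD, n = 3 each), without overlap between groups. The ratio of Psat1 to Phgdh reads was 0.991 ± 0.0791 in Control and 0.814 ± 0.0881 in STZ, and here the groups overlapped, since Control replicate 3 (0.907) lay just under STZ replicate 3 (0.908). RefSeq (GRCr8) lists 6 pseudogenes of Phgdh, 1 of Psat1, 1 of Shmt2 and 1 named for Mthfd1, and reads identical to such a copy do not map uniquely, so the absolute levels of these 4 genes are uncertain.

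**Figure D1:**
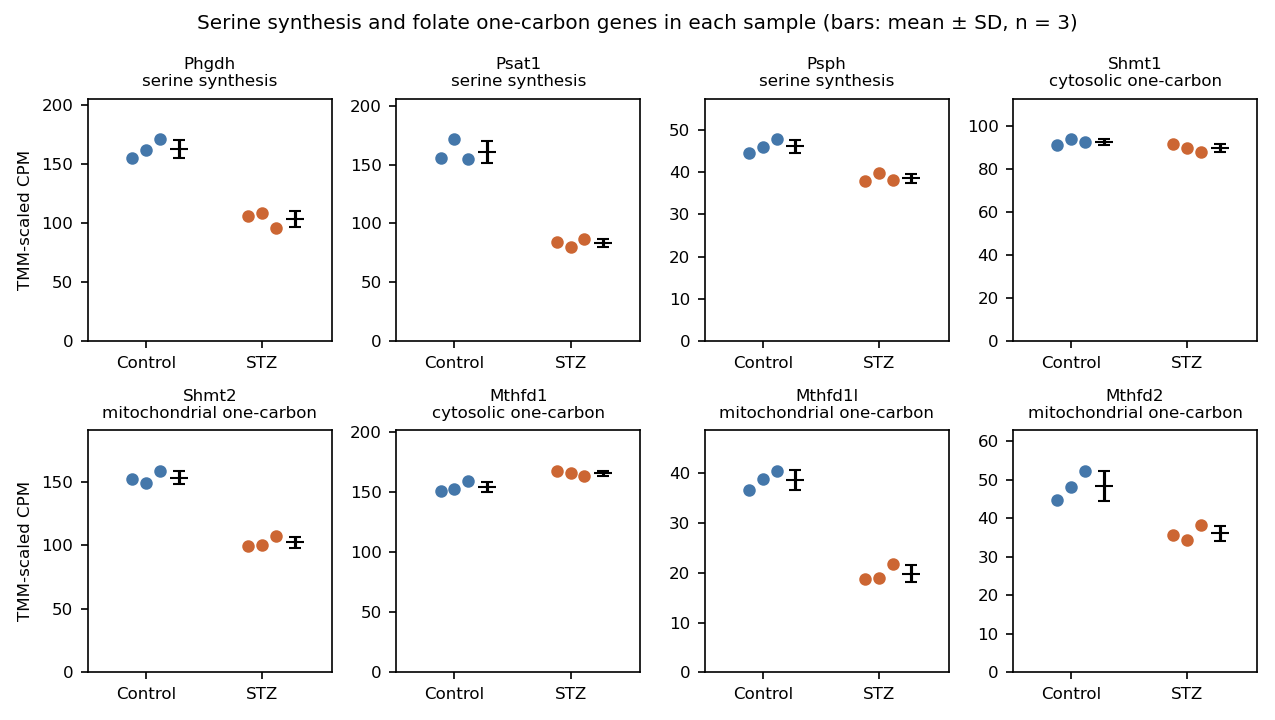
TMM-scaled CPM (y axis, from 0, scaled per gene) of the 8 genes that passed the filter, with a point per sample and black marks for the mean ± SD of 3 samples. Control and STZ points are separate for all of them but Shmt1, and only Mthfd1 has the STZ points above.

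The mitochondrial enzymes of the set with enough reads were lower in STZ-treated cells as well. Shmt2, the mitochondrial serine hydroxymethyltransferase, had 152, 149 and 159 CPM in Control and 99.1, 99.98 and 107 CPM in STZ. The STZ samples were all lower, with a log2 fold change of -0.58 (standard error 0.05), 0.668 of the Control level. Mthfd2, the mitochondrial methylenetetrahydrofolate dehydrogenase and cyclohydrolase, had 44.6, 48.0 and 52.3 CPM in Control and 35.7, 34.4 and 38.1 CPM in STZ. The groups did not overlap, although Control samples differed among themselves with an SD of 3.83 CPM (log2 fold change -0.42, standard error 0.07). Mthfd1l, the mitochondrial formyltetrahydrofolate synthetase that releases formate, had 36.5, 38.8 and 40.4 CPM in Control and 18.7, 18.9 and 21.8 CPM in STZ. It had the lowest log2 fold change of the set, -0.96 (standard error 0.08), 0.514 of the Control level, from 218 to 519 reads per sample. In the GRCr8 annotation the span of Shmt2 overlaps Ndufa4l2, which had 10 reads over all samples, and that of Mthfd1l overlaps a pseudogene and a small nuclear RNA. Whether reads were counted by strand is not given in the sources used here. Aldh1l2, the mitochondrial formyltetrahydrofolate dehydrogenase, had 0 reads in 5 samples and 1 read in STZ replicate 2, so it was not tested. A count of 0 allows up to 3 reads, between 0.200 and 0.282 CPM depending on the library, by counting error only.

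The 2 cytosolic one-carbon enzymes of the set had log2 fold changes near 0. Shmt1, the cytosolic serine hydroxymethyltransferase, had 90.8, 93.7 and 92.2 CPM in Control and 91.3, 89.7 and 87.6 CPM in STZ. The groups overlapped, and the log2 fold change of -0.04 was under its standard error of 0.05. Mthfd1, the cytosolic trifunctional enzyme, had 151, 152 and 159 CPM in Control and 168, 166 and 164 CPM in STZ. All STZ samples lay above all Control samples, but by little, with a log2 fold change of 0.10 (standard error 0.04) that stayed between 0.07 and 0.13 in 14 refits. Its call was lost in 8 of them, including those without Control replicate 1 (0.09), Control replicate 2 (0.09), STZ replicate 1 (0.10) or STZ replicate 2 (0.10). The direction was kept in all 14.

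Ratios of reads within a sample set the mitochondrial against the cytosolic enzyme and do not depend on library scaling. For each Shmt1 read there were 1.66 ± 0.0671 Shmt2 reads in Control and 1.14 ± 0.0745 in STZ (SD, n = 3 each). The ratio of Mthfd2 to Mthfd1 reads was 0.313 ± 0.0169 in Control and 0.218 ± 0.0135 in STZ. That of Mthfd1l to Mthfd1 moved most, from 0.250 ± 0.00747 in Control to 0.120 ± 0.0120 in STZ, 0.478 of the Control ratio. In these 3 pairs every STZ sample lay below every Control sample. Gene length is not accounted for, so a ratio compares the groups and not the levels of the paired genes.

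**Figure D2:**
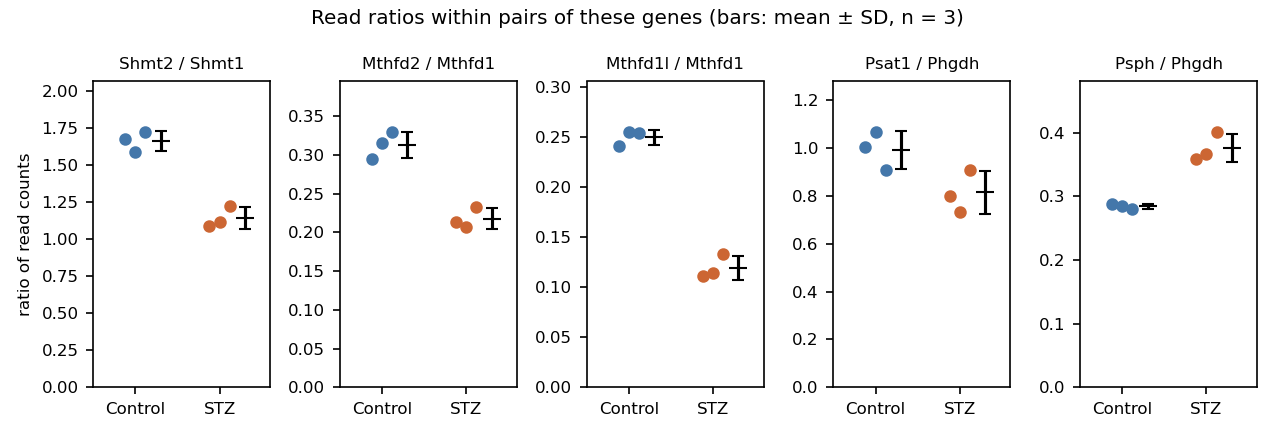
Ratio of raw read counts of gene pairs (y axis, from 0) in each sample, with a point per sample and black marks for the mean ± SD of 3 samples. STZ points lie below Control points for Shmt2/Shmt1, Mthfd2/Mthfd1 and Mthfd1l/Mthfd1, above them for Psph/Phgdh, and overlap them for Psat1/Phgdh.

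Of the 9 genes 8 passed the filter, and of these 6 were called lower, 1 (Mthfd1) higher and 1 (Shmt1) was not called. Among all genes tested 25.1% were called lower and 25.9% higher, 50.9% in either direction, and nothing is read from the comparison because the set was picked on this contrast. By edgeR, 0 of the 8 genes also passed the study's second threshold, an absolute log2 fold change over 1, against 3.37% of all genes tested. DESeq2 and limma-voom likewise gave 0. Mthfd1l passed both thresholds without STZ replicate 3, at -1.04. The groups did not overlap, with STZ lower, for 6 genes and, with STZ higher, for 1, against 27.7% and 28.6% of all genes tested. The median log2 fold change of the 8 genes was -0.50, beside -0.01 for all genes tested.

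Genes around the set were taken from 5 lists of the pathway, to be read beside the 25.1% of all genes tested that fell, the 25.9% that rose and the median log2 fold change of -0.01. The lists were chosen with earlier results of these data known. Most genes named from a list had its smallest p or its largest called changes. Their adjusted p-values therefore describe picked genes and are not independent tests. Of 15 genes that use or carry serine and glycine, 11 were tested, of which 3 fell and 2 rose, with a median log2 fold change of -0.13. Gcsh, the H protein of the mitochondrial glycine cleavage system, fell from 55.4 ± 2.24 to 36.9 ± 2.86 CPM (SD, n = 3 each; log2 fold change -0.59, standard error 0.06, adjusted p = 1.5e-10 in edgeR). Gcat, which forms glycine in threonine breakdown, fell by 0.40 on the log2 scale (edgeR adjusted p = 1.9e-04). Slc1a4, a carrier of alanine, serine and cysteine, rose from 88.5 ± 4.04 to 130 ± 2.30 CPM (SD, n = 3 each; log2 fold change 0.55, edgeR adjusted p = 1.8e-13). Sfxn3, a sideroflexin of the family that brings serine into mitochondria, rose by 0.19 on the log2 scale (edgeR adjusted p = 0.0014). Sfxn1 of the same family had a log2 fold change of -0.13 and was not called (edgeR adjusted p = 0.051).

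Of 17 other folate carriers and enzymes, 13 were tested, of which 4 fell and 3 rose, with a median log2 fold change of -0.07. Tyms, thymidylate synthase, rose from 129 ± 2.62 to 186 ± 6.21 CPM (SD, n = 3 each; log2 fold change 0.52, standard error 0.04, edgeR adjusted p = 6.4e-14). Fpgs, which adds the glutamate tail that keeps folates in the cell, fell by 0.27 on the log2 scale (edgeR adjusted p = 2.2e-05). Aldh1l1, the cytosolic relative of Aldh1l2, had only 0.655 ± 0.194 CPM in Control and 1.38 ± 0.551 CPM in STZ. Its log2 fold change was 1.02 (edgeR adjusted p = 0.023). The call was lost without STZ replicate 1 (0.66), Control replicate 1 (0.85) or Control replicate 2 (0.99), and under DESeq2 (adjusted p = 0.091). A filter of at least 10 counts in every sample left Aldh1l1 out.

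All 7 tested genes of de novo purine synthesis, which draws carbon from 10-formyltetrahydrofolate, were called, 6 lower and 1 higher, with a median log2 fold change of -0.25. Pfas fell from 138 ± 1.13 to 108 ± 5.61 CPM (SD, n = 3 each; log2 fold change -0.35, standard error 0.05, edgeR adjusted p = 1.6e-08), and Prps2, which makes the ribose donor, fell by 0.34 on the log2 scale (edgeR adjusted p = 1.9e-05). Atic, which carries out the last formyl transfer of the route, rose from 161 ± 1.93 to 184 ± 2.89 CPM (log2 fold change 0.19, edgeR adjusted p = 1.0e-04). Of 13 genes of the methionine cycle and transsulfuration, 9 were tested, of which 3 fell and 4 rose, with a median of 0.09. Ahcy, which clears S-adenosylhomocysteine, fell from 296 ± 13.2 to 206 ± 4.56 CPM (log2 fold change -0.52, standard error 0.04, edgeR adjusted p = 1.4e-14), and Mtr, the methionine synthase that takes its methyl group from folate, fell by 0.55 (edgeR adjusted p = 3.5e-08). Among those that rose were Mat1a, a methionine adenosyltransferase (2.59 ± 0.377 to 5.83 ± 0.837 CPM, log2 fold change 1.15, edgeR adjusted p = 3.5e-06), and Cth, the last enzyme of transsulfuration (log2 fold change 0.81, edgeR adjusted p = 3.5e-05).

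**Figure D3:**
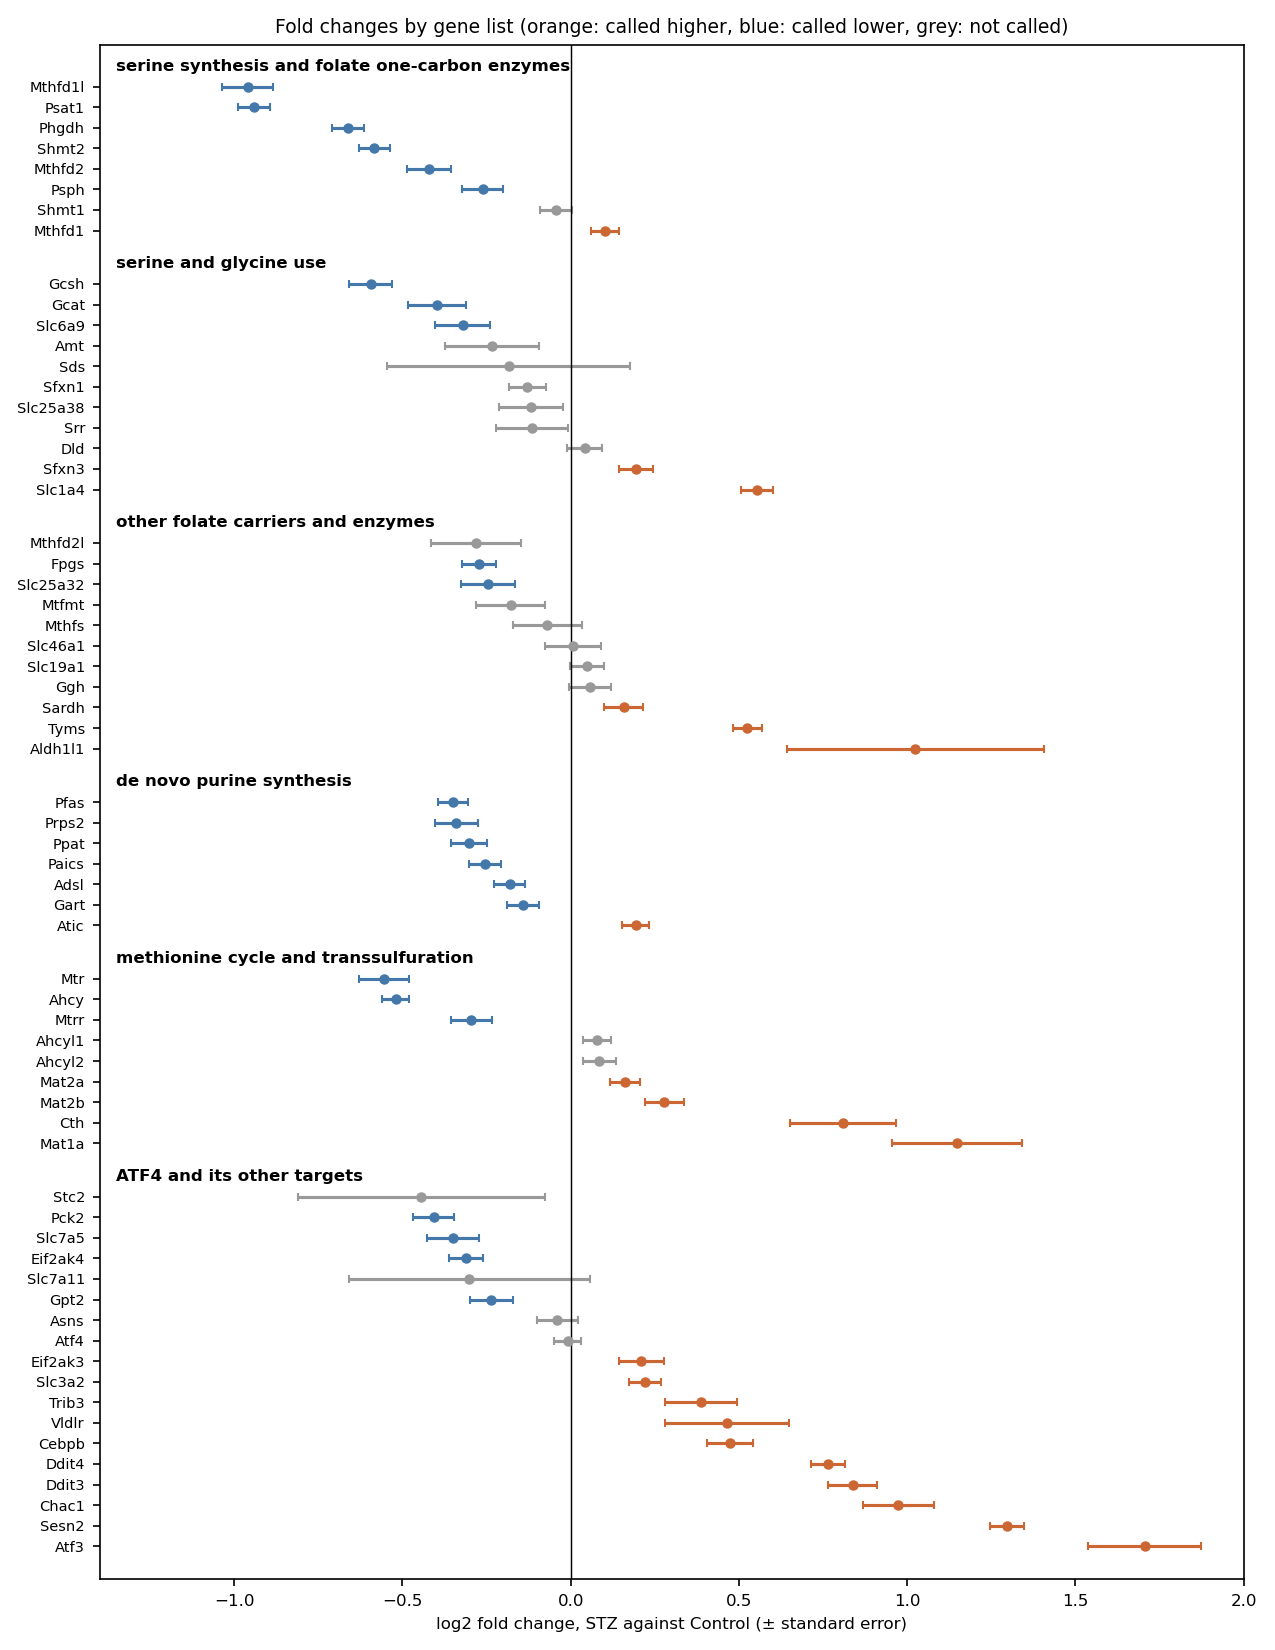
Log2 fold change of STZ against Control (x axis) with its standard error, from the edgeR fit across all genes, for the 8 tested genes of the set and most tested genes of 5 related lists. Orange marks genes called higher, blue genes called lower and grey genes not called. Mthfd1l and Psat1 lie lowest of all genes drawn, at -0.96 and -0.94, and Atf3 lies highest, at 1.71.

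Genes linked to ATF4 moved in both directions. The list of 21 genes held Atf4, its targets or partners, and the upstream kinases Eif2ak3 and Eif2ak4. Of these genes 18 were tested, of which 10 rose and 4 fell, with a median log2 fold change of 0.22. These counts include Eif2ak3 (log2 fold change 0.21, called higher) and Eif2ak4 (-0.31, called lower). Atf4 itself had 247 ± 10.1 CPM in Control and 246 ± 6.84 CPM in STZ (SD, n = 3 each; log2 fold change -0.01, standard error 0.04, edgeR adjusted p = 0.87). This is its RNA level, and neither ATF4 protein nor its activity was measured in these samples. Asns, asparagine synthetase, had a log2 fold change of -0.04 (standard error 0.06, edgeR adjusted p = 0.61). Ddit3, which encodes the stress factor CHOP, rose from 22.1 ± 1.67 to 39.4 ± 1.06 CPM (log2 fold change 0.84, edgeR adjusted p = 6.2e-13). Atf3 and Sesn2, which p53 is also known to induce, rose by 1.71 and 1.30 on the log2 scale (edgeR adjusted p = 1.6e-11 and 2.5e-24). Pck2, the mitochondrial phosphoenolpyruvate carboxykinase, fell by 0.41 (edgeR adjusted p = 3.7e-07) and Slc7a5, a carrier of large neutral amino acids, by 0.35 (edgeR adjusted p = 2.2e-04), and the call of Slc7a5 was lost under DESeq2 (adjusted p = 0.058).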

How the data were processed

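mRNA of NRK-52E cells (3 Control and 3 STZ samples) was sequenced from libraries made with a stranded kit. The authors aligned reads with STAR 2.7.10a to the rat build Rnor6, assigned uniquely mapped reads to genes by featureCounts, and deposited the raw counts, not normalized, in 1 table. Columns were assigned by the labels. TMM scaling, the filter (filterByExpr, default settings), the quasi-likelihood test and Benjamini-Hochberg adjustment over all genes tested came from edgeR 4.0.16 (R 4.3.3), and the standard error of a log2 fold change is its size over the square root of F. Alternatives used DESeq2 1.42.0 and limma 3.58.1 (voom), 3 other scalings, 2 other filters, a replicate block, and each sample left out. The steps were tested on simulated counts. The genes and the lists were chosen with earlier results of these data known. Named genes are the 9 of the set, the gene with the smallest p and the 2 largest called rises and falls of each list, and Atf4, Ddit3, Asns and Tyms. Sfxn1, Eif2ak3 and Eif2ak4 are named beside these. Some single genes that the rule picks are not reported here but enter the counts. Pseudogene names, overlapping genes and promoter sequences came from RefSeq (GRCr8). Transcript lengths were not used, so levels are not compared between genes. The precision for low genes is set by the totals, 10430924 to 15191349 counts a library. Within groups, every pair of samples differed beyond counting noise (lowest chi-square 1.85 per degree of freedom).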

Additional observations from a re-analysis of the deposited data

How the results depend on the processing

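The 6 genes of the set that were called lower kept that call in each of the 14 refits (3 other scalings, 2 other filters, DESeq2's Wald test, limma-voom, a replicate block, and each of 6 samples omitted in turn), and Shmt1 was called in none. The count called higher, 1 (Mthfd1), was 0 with library size only, 0 with the upper quartile, 0 with no filter, 0 with DESeq2 and 0 to 1 with a sample left out. The count past both thresholds, 0, was 0 to 1 with a sample left out. Of the other folate genes, the 3 called higher became 1 with DESeq2 and 1 to 3 with a sample left out, and the 4 called lower became 2 to 4 with a sample left out, 2 without Control replicate 3. The log2 fold change of Atf4, never called, was -0.0375 to 0.0225 with a sample left out and changed sign without Control replicate 3 (0.0225) and without STZ replicate 1 (0.0164). The cause of these changes was not tested. Of 112 refits of single genes of the set 104 kept direction and call and 8 lost the call, all of Mthfd1; of 321 refits of single genes of the lists 309 kept both. Aldh1l2, with 1 read, was tested only with no filter, and depth limits what can be said of it. The median log2 fold change of all genes was -0.04 with library size only, against -0.01 under TMM.

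Replicate numbers recur in both groups. The correlation between Control 1 and STZ 1 of what remains after subtracting each group's mean was 0.03 over 10341 genes, and it was -0.04 for the pair numbered 2 and 0.10 for the pair numbered 3. Genes are not independent points, so these correlations cannot decide whether samples with the same number share more than that number. Under the replicate block, 6 genes of the set were called lower and 1 higher, as without it, and 6199 of all genes were called, against 6046.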
